A study of Homo sapiens with 2 samples.

Results

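The transcription factors that drive epithelial-mesenchymal transition (EMT) were examined as 8 genes, TWIST1, TWIST2, SNAI1, SNAI2, ZEB1, ZEB2, PRRX1 and PRRX2, taken by symbol from the 26485 genes of a count table. The table covers 2 human lines of leiomyosarcoma, a tumour of smooth muscle. They are SK-LMS-1, derived from the vulva, and SK-UT-1, derived from the uterus, both treated with the solvent DMSO and each sequenced as 1 library of total RNA. The series addresses inhibition of the histone methyltransferase SUV39H2 together with poly(ADP-ribose) polymerase inhibition in uterine leiomyosarcoma, and the comparison here asks how the 2 lines differ under solvent alone. No difference has a replicate check, no test between the lines was possible, and each range in parentheses is an exact 95% interval for counting error only.

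EMT is the change by which epithelial cells lose their junctions and take on a migratory, mesenchymal form. TWIST proteins are basic helix-loop-helix factors that bind DNA as dimers. SNAI and ZEB proteins are zinc finger repressors that bind E-box motifs in epithelial genes such as CDH1, the gene of E-cadherin. PRRX proteins are paired-related homeobox factors of embryonic mesenchyme. Sarcoma cells are mesenchymal by origin, and such factors are commonly found in them.

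The libraries held 6906280 counts in SK-LMS-1 against 7635850 in SK-UT-1. Levels between lines are given as TMM-scaled CPM, that is counts relative to library size after a trimmed-mean correction, and levels between genes as TPM, which also divides by exon length. Where 2 values follow each other without a line named, SK-LMS-1 comes first. Genes that reached 1 CPM in at least 1 of the libraries, 14324 in all, were taken as measured. Of the smooth muscle markers, 9 of 11 were measured, of which 5 leaned 2-fold or more to SK-LMS-1, 3 to SK-UT-1, and 1 differed by less. The 11 markers summed to 1468 and 529 CPM, with CALD1 (749 and 343 CPM) and MYLK (414 and 9.94 CPM) the largest in SK-LMS-1. MYOCD, the coactivator that drives the smooth muscle programme, had 0 counts in both lines, and MYH11, smooth muscle myosin, had 5 and 2. Of 7 leukocyte markers only CD68, a lysosomal protein gene, was measured, at 91.9 and 14.5 CPM, with PTPRC at 0 in both lines. The 6 endothelial markers summed to 38.0 and 1.37 CPM, of which TIE1, a receptor gene, gave 36.5 CPM (239 counts) in SK-LMS-1 against 0 counts, while VWF and KDR were at 0 in both. The part of these differences in the results on the factors was not tested, and in bulk RNA fewer expressing cells and less RNA per cell cannot be told apart.

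Both lines expressed SNAI2 and ZEB1, which were 2.20-fold and 1.64-fold higher in SK-UT-1. They differed more in TWIST1, ZEB2, PRRX1 and PRRX2. PRRX1 and ZEB2 were far higher in SK-LMS-1, and TWIST1 and, at a lower level, PRRX2 were higher in SK-UT-1. TWIST1 and ZEB2 stood at nearly the same TPM in SK-LMS-1. SNAI1 was near absent in both. Of the 8 genes, 7 were measured, 2 leaned by 2-fold or more towards SK-LMS-1, 3 towards SK-UT-1, and 2 differed by less. Among all measured genes, 21.9% leaned so towards SK-LMS-1, 18.3% towards SK-UT-1 and 40.2% either way. The balance of these background shares turned with scaling, from 3140 against 2618 genes to 2815 against 3122 with library totals. At 4-fold the gene counts were 2 and 2, beside 11.4% and 7.30% of all measured genes, or 18.7% either way. PRRX1 and ZEB2 were also more than 32-fold apart, as were 3.61% of measured genes in either direction. PRRX1, ZEB2 and PRRX2 passed the 1 CPM rule through 1 library only, so their presence among the measured genes already implies a difference.

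**Figure D1:**
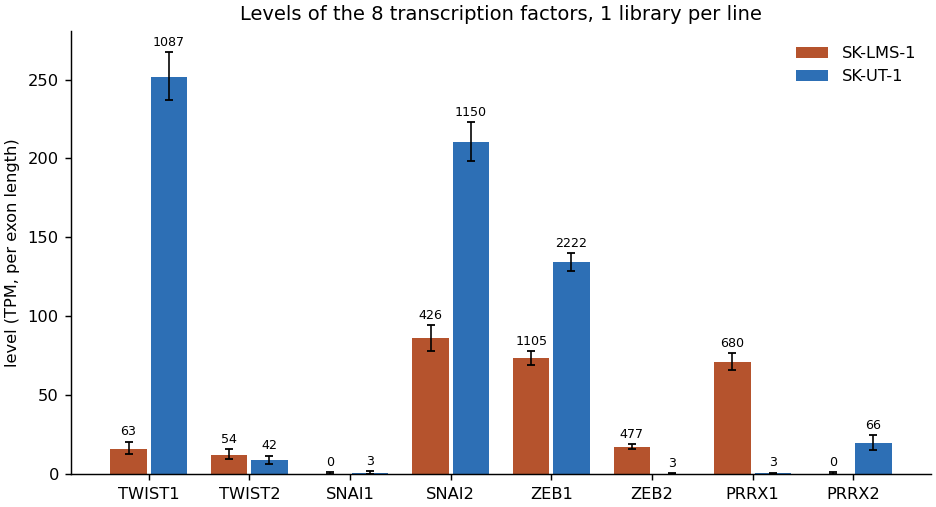
Levels of the 8 factors in TPM (vertical axis) by gene, with 1 bar per line and library, exact 95% Poisson counting intervals as error bars and raw counts printed above. TWIST1 reached 252 TPM in SK-UT-1 and 16.1 TPM in SK-LMS-1, whereas PRRX1 reached 71.0 TPM in SK-LMS-1 against 3 counts in SK-UT-1.

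TWIST1, a bHLH factor needed for cranial mesoderm, had 63 counts in SK-LMS-1 against 1087 in SK-UT-1, or 9.61 and 135 CPM. It was thus 14.0-fold (10.9 to 18.4) higher in SK-UT-1. Ordered by TPM among the genes with a count in each library, it stood at percentile 50.2 in SK-LMS-1 against 96.3 in SK-UT-1. Its relative TWIST2, active in dermal mesenchyme, had 54 and 42 counts, or 8.24 and 5.22 CPM. TWIST2 was low in both lines, and its ratio of 1.58-fold towards SK-LMS-1 (1.04 to 2.42) included no difference when libraries were scaled by their totals (1.42-fold, 0.932 to 2.18). Per exon length, TWIST1 exceeded TWIST2 by 1.32-fold in SK-LMS-1 (0.902 to 1.93), a difference not detectable at this depth, and by 29.3-fold in SK-UT-1 (21.5 to 40.8). The ratio within this pair, which does not depend on library scaling, was 22.0 times larger in SK-UT-1 (13.4 to 36.7). In hg38, TWIST1 occupies chromosome 7 from 19115468 to 19117672 (minus strand, 2 exons) and TWIST2 chromosome 2 from 238848032 to 238910548 (plus strand).

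SNAI2, also called Slug and known from neural crest migration, had 426 and 1150 counts, or 65.0 and 143 CPM. It was 2.20-fold (1.96 to 2.46) higher in SK-UT-1, so its interval reached just under the 2-fold rule. SNAI1, or Snail, the relative that represses CDH1 early in development, had 0 counts in SK-LMS-1 against 3 in SK-UT-1. With 3 counts, or 0.458 CPM in SK-LMS-1, taken as the floor for a count of 0, no difference in SNAI1 could be detected. Practically all Snail family counts in both lines therefore came from SNAI2. SNAI2 spans chromosome 8, 48917681 to 48921440, on the minus strand, and SNAI1 spans chromosome 20, 49982976 to 49988883, on the plus strand.

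ZEB1, a repressor with a zinc finger cluster at each end and a homeodomain between them, had 1105 counts in SK-LMS-1 against 2222 in SK-UT-1. These are 169 and 276 CPM, the highest CPM of the 8 genes in each line, and a 1.64-fold higher level in SK-UT-1 (1.52 to 1.76). ZEB2, its relative of the same layout, had 477 and 3 counts, or 72.8 and 0.373 CPM, and was 195-fold (66.4 to 950) higher in SK-LMS-1. It stood at TPM percentile 51.9 in SK-LMS-1 against 1.88 in SK-UT-1. The lines thus shared ZEB1 and differed in ZEB2. Per exon length, ZEB1 exceeded ZEB2 by 4.23-fold in SK-LMS-1 (3.79 to 4.72) and by 1351-fold in SK-UT-1 (462 to 6557). ZEB1 occupies chromosome 10 from 31319172 to 31529814 (plus strand) and ZEB2 chromosome 2 from 144384375 to 144520391 (minus strand). ZEB2 overlaps ZEB2-AS1 on the opposite strand, which had 0 counts in both lines under strand-aware counting.

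ZEB1 and ZEB2 are the known targets of the miR-200 family, microRNAs of epithelial cells that ZEB proteins repress in turn. The mature sequences, from RefSeq on GRCh38.p14, are shown because their seeds are the part that pairs with ZEB1 and ZEB2 transcripts. They run 5′ to 3′ with the seed, bases 2 to 8, in capitals, and fall into 2 seed groups.
miR-200b-3p: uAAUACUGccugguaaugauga
miR-200c-3p: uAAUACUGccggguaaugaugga
miR-429: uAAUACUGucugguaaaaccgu
miR-200a-3p: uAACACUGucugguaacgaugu
miR-141-3p: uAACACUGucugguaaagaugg
The reverse complements of the seeds, CAGTATT and CAGTGTT, were counted on the sense strand of the 3′ untranslated region of 1 GENCODE v29 transcript per gene. ZEB1 held 6 and 3 of them in 2549 bases, and ZEB2 held 5 and 4 in 5370 bases. SNAI2 held 1 of the first, and TWIST1, TWIST2, SNAI1, PRRX1 and PRRX2 held none. Of 18760 genes, 14.2% held CAGTATT and 16.0% held CAGTGTT, 25.1% held either, and 5 genes, ZEB1 and ZEB2 among them, held 9 or more. A match is a stretch of letters and not a shown site. The 5 hairpin loci, MIR200B, MIR200A and MIR429 on chromosome 1 and MIR200C and MIR141 on chromosome 12, had 0 counts in both lines. These hairpins are 68 to 95 bases long in the annotation, and mature microRNAs were not measured by these libraries.

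PRRX1, a homeobox gene of limb and craniofacial mesenchyme, had 680 counts in SK-LMS-1 against 3 in SK-UT-1, or 104 and 0.373 CPM. Its ratio of 278 (94.9 to 1353) towards SK-LMS-1 was the largest point value of the 8 genes, but was not separated from that of ZEB2 by counting error, and the ratio of PRRX2 is only a bound. PRRX2, its relative, had 0 counts in SK-LMS-1 against 66 in SK-UT-1, or 8.20 CPM. Set against a floor of 3 counts it was higher by at least 17.9-fold in SK-UT-1, or 14.2-fold at the lower limit once the counting error of its 66 counts is included. Each line thus held nearly all counts of the pair in 1 gene. Per exon length, PRRX1 was at least 72.9-fold above PRRX2 in SK-LMS-1, against the same floor, and PRRX2 was 68.4-fold above PRRX1 in SK-UT-1 (22.4 to 340). The exchange was uneven in level, since the 2 genes together stood at 71.0 against 19.7 TPM. PRRX1 spans chromosome 1, 170664172 to 170739400, and PRRX2 spans chromosome 9, 129665641 to 129722672, both on the plus strand.

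**Figure D2:**
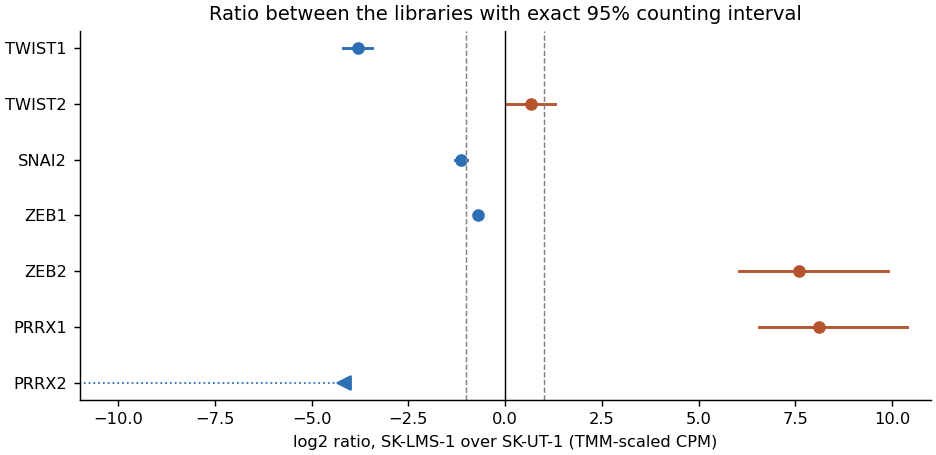
Log2 ratio of SK-LMS-1 over SK-UT-1 (horizontal axis, TMM-scaled CPM) for the 7 measured factors, with points for the ratio, bars for the exact 95% counting interval and dashed lines at 2-fold. The triangle of PRRX2 marks a bound against a floor of 3 counts, with the dotted line open to larger differences. ZEB2 and PRRX1 lie at 7.61 and 8.12, TWIST1 at -3.81.

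The order of levels per exon length differed between the lines. In SK-LMS-1 it ran from SNAI2 at 85.9 TPM through ZEB1 at 73.5 and PRRX1 at 71.0 to ZEB2 at 17.4, TWIST1 at 16.1 and TWIST2 at 12.2. Within counting error, ZEB1 and PRRX1 were not separated (ratio 1.04, 0.940 to 1.14), nor ZEB2 and TWIST1 (1.08, 0.831 to 1.43), nor TWIST1 and TWIST2. In SK-UT-1 it ran from TWIST1 at 252 TPM through SNAI2 at 211 and ZEB1 at 134 to PRRX2 at 19.5 and TWIST2 at 8.61, each separated from the next beyond counting error. SNAI1, PRRX1 and ZEB2 followed with 3 counts each and were not separated. The 8 genes summed to 276 against 626 TPM. TWIST1 made up 5.82% of the summed counts per kilobase in SK-LMS-1 against 40.2% in SK-UT-1. PRRX1 made up 25.7% and 0.0455%, while SNAI2 held 31.1% and 33.6%. Without the division by length, SNAI2 held 15.2% and 25.1% of the counts, and ZEB1 held 39.4% and 48.6%, the reverse of its order per kilobase (26.6% and 21.5%).

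**Figure D3:**
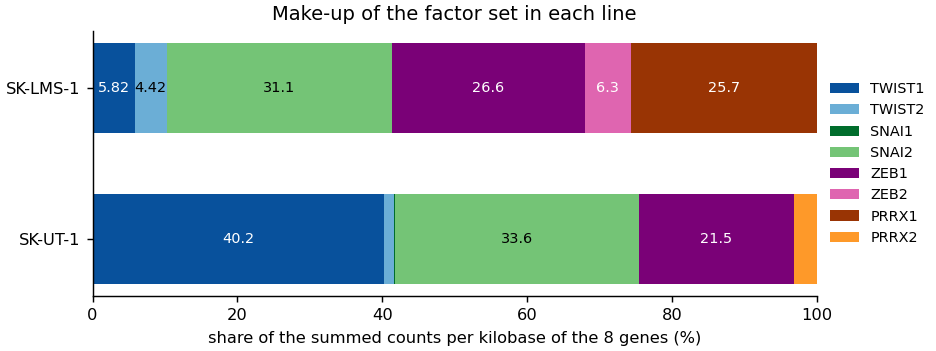
Share of each factor (horizontal axis, percent of the summed counts per kilobase of the 8 genes) in each line, 1 library per bar, with shares above 3.5% printed. SNAI2 and ZEB1 take 31.1% and 26.6% in SK-LMS-1 against 33.6% and 21.5% in SK-UT-1, per kilobase, and the remainder is mainly PRRX1 in SK-LMS-1 and TWIST1 in SK-UT-1.

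TWIST proteins act with the E proteins TCF3, TCF4 and TCF12, and ID proteins, which lack a DNA-binding region, take E proteins out of such dimers. All 4 ID genes were higher in SK-UT-1, the line high in TWIST1. ID2 had 60 and 1160 counts and was 15.7-fold higher (12.1 to 20.8). ID4 was 22.8-fold higher (16.2 to 33.2), at 5.19 against 119 CPM. ID3 was 3.97-fold higher (3.35 to 4.73) and ID1 3.39-fold (2.90 to 3.97). Of the E proteins, TCF3 was 2.08-fold (1.88 to 2.31) higher in SK-UT-1, whereas TCF4 was 1.87-fold (1.65 to 2.11) higher in SK-LMS-1. TCF12 had 966 counts in each line, 147 and 120.0 CPM. Summed TPM of the 4 ID genes was 147 in SK-LMS-1 against 932 in SK-UT-1, and that of the 3 E proteins 155 and 198. The ID sum over the E protein sum was therefore 0.948 in SK-LMS-1 against 4.70 in SK-UT-1. HAND1 and HAND2, further bHLH partners, had at most 4 counts. In this list 7 genes were measured, 5 of them leaning 2-fold or more to SK-UT-1 and 0 to SK-LMS-1, and the median log2 ratio was -1.76 beside 0.01 over all measured genes.

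The genes of the proteins through which SNAI and ZEB factors repress differed less in RNA level. Of 17 co-repressor genes, all measured, 15 differed by less than 2-fold, 2 leaned to SK-UT-1 and 0 to SK-LMS-1, and the median was -0.42. CTBP1, the corepressor of ZEB proteins, was 1.45-fold (1.29 to 1.63) higher in SK-UT-1, and CTBP2 stood at 68.1 and 75.8 CPM, not separated by counting error. KDM1A, the demethylase that docks on the SNAG end of SNAI proteins and the gene of the list with the highest mean TPM over both lines, though not in SK-LMS-1 alone, stood at 181 and 338 CPM. SUZ12, a Polycomb subunit, was 2.69-fold (2.51 to 2.88) higher in SK-UT-1, and WTIP, a LIM protein, 8.28-fold (3.59 to 23.4) from 6 counts. Of 16 genes that govern the stability of these proteins, 15 also differed by less than 2-fold (median -0.14). FBXL14, the ubiquitin ligase adaptor of Snail proteins, was 2.18-fold (1.58 to 3.05) higher in SK-UT-1. SKP1, a ubiquitin ligase subunit and the most abundant of the list per length, stood at 209 and 203 CPM.

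Among upstream regulators, genes of the TGF-beta pathway, a classical inducer of EMT, were mostly higher in SK-LMS-1. TGFBR2, the type II receptor, had 1211 counts in SK-LMS-1 against 21 in SK-UT-1, a ratio of 70.8 (46.1 to 115) towards SK-LMS-1. The ligand gene TGFB2 went the other way, with 198 and 1967 counts, 8.09-fold (6.99 to 9.41) higher in SK-UT-1, although 23.0% of its exon bases are shared with TGFB2-OT1 on the same strand. SMAD2 was also higher in SK-UT-1, by 1.44-fold (1.33 to 1.57). Higher in SK-LMS-1 were TGFB3 (2.24-fold, 1.58 to 3.21), SMAD3 (2.24-fold, 2.07 to 2.43), TGFB1 (1.87-fold, 1.61 to 2.17) and TGFBR1 (1.80-fold, 1.67 to 1.93). SMAD4 was 1.19-fold (1.07 to 1.32) higher there, a lean that depends on scaling. Its lower limit of 0.0985 on the log2 scale is smaller than the median shift of -0.15 with library totals. The hypoxia factor EPAS1 and the immediate early gene EGR1 leaned to SK-LMS-1, the first by 3.04-fold (2.57 to 3.60) and the second by 3.35-fold (2.31 to 4.94). NOTCH1, a receptor, and STAT3, a cytokine-activated factor, leaned to SK-UT-1, by 3.61-fold (3.04 to 4.32) and 2.41-fold (2.17 to 2.67). YBX1, an RNA-binding translation factor and the most abundant of the list per length, stood at 327 and 286 CPM. Among 20 measured regulators, 6 leaned 2-fold or more to SK-LMS-1, 3 to SK-UT-1, and 11 differed by less (median 0.47).

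Other transcription factors linked to EMT were mostly higher in SK-LMS-1. FOXC1, a forkhead factor of mesenchyme, had 230 and 3 counts, a ratio of 94.2 (31.8 to 460) towards SK-LMS-1. KLF8, a zinc finger factor, was 32.5-fold higher (8.58 to 276) against 2 counts, and the T-box gene TBX2 28.5-fold (11.9 to 89.4). ETS1, with the highest mean TPM of the list over both lines, though not in SK-LMS-1 alone, was 2.04-fold higher (1.93 to 2.17). In the other direction, MSX1 was 3.52-fold (2.41 to 5.27) and SOX4 2.85-fold (2.49 to 3.26) higher in SK-UT-1. Among 17 measured genes, 12 leaned 2-fold or more to SK-LMS-1, 3 to SK-UT-1, and 2 differed by less (median 2.08).

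The epithelial regulators that oppose these factors were scarce in both lines. GRHL2 and OVOL1 had 0 counts in each, OVOL2 had 0 and 1, and the splicing regulator ESRP1 had 0 and 2. ESRP2 had 9 and 4 counts. Of 18 genes, 8 were measured. EHF, an ETS factor of epithelia, was an exception at 15 and 306 counts, 16.6-fold (9.91 to 30.0) higher in SK-UT-1. KLF5 was 59.4-fold (19.9 to 291) higher in SK-LMS-1 against 3 counts, and FOXA2 at least 26.6-fold, at 65 and 0 counts. Of the 8, 4 leaned 2-fold or more to SK-LMS-1 and 3 to SK-UT-1. The list median of 0.36 turned negative under other scalings, for example to -0.63 with library totals.

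CDH1 itself, the textbook target of SNAI, ZEB and TWIST proteins, had 0 counts in SK-LMS-1 against 4 in SK-UT-1. Other genes of the target list were expressed in SK-UT-1, the line with more TWIST1 and SNAI2 and far less ZEB2. The part of these factors in the target levels was not tested. JUP, the plakoglobin of junctions, had 0 and 279 counts and was higher by at least 75.7-fold in SK-UT-1. SPINT1, a protease inhibitor, was at least 35.8-fold higher there. KRT18, a simple epithelial keratin, was 6.94-fold (5.50 to 8.84) higher in SK-LMS-1, at 73.3 against 10.6 CPM. Of 27 genes, 20 were measured, of which 11 leaned 2-fold or more to SK-UT-1 and 4 to SK-LMS-1, while 5 differed by less (median -1.32). With a filter at 5 CPM, 7 leaned to SK-UT-1 and 1 to SK-LMS-1, and by intervals wholly past 2-fold, 7 to SK-UT-1 and 2 to SK-LMS-1. The 27 genes summed to 131 and 187 CPM.

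SNAI and ZEB proteins bind the E-box CAGGTG, read on the other strand as CACCTG. Promoters here are the 250 bases before and 50 after a RefSeq start on GRCh38.p14. For 16 of the 27 target genes a promoter was matched, and 11 of them (68.8%) held at least 1 such E-box on either strand in any of their promoters. CDH1 was not among the 16. Over all 27305 genes with a promoter the share was 24.1%. It was 36.4% (4 of 11) for the epithelial regulators and 23.1% (3 of 13) for the mesenchymal targets. The genes were listed as repressed targets of E-box binding factors, so a high share may come from that choice. Binding to these promoters was not tested. The target promoters also held more CpG pairs, with a median of 24 beside 14 over all promoters. Shown are 3 of them, chosen after their values were seen, with E-boxes in capitals. CLDN7 and CRB3 each hold 5, the most in the list, and JUP holds 2.
CLDN7: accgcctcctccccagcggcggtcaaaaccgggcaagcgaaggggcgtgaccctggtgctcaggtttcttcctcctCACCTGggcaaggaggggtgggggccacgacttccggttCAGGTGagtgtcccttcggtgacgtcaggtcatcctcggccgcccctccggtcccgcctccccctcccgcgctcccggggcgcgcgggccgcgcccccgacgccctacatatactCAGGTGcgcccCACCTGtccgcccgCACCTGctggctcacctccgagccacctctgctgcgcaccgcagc
CRB3: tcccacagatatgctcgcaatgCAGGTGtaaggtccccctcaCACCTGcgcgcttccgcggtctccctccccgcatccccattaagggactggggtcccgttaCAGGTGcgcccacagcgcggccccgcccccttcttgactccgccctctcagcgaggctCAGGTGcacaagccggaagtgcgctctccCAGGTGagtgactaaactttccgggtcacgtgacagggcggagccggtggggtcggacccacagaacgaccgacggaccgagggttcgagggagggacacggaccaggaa
JUP: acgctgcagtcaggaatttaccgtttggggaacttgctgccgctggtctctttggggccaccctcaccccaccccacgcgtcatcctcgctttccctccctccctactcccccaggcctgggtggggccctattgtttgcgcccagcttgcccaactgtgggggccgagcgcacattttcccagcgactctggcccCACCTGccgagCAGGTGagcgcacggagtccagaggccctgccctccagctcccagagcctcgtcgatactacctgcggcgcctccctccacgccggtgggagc
They lie at chr17:7262429-7262728 (minus strand), chr19:6464021-6464320 (plus strand) and chr17:41785927-41786226 (minus strand). CRB3, a polarity gene, had 0 counts in both lines, and CLDN7, a tight junction gene, had 7 and 1. JUP, with 0 counts in SK-LMS-1, stood at 34.7 CPM in SK-UT-1 with 2 E-boxes in its promoter. Of the factors, promoters of TWIST2, ZEB1, ZEB2, PRRX1 and PRRX2 were matched, and those of TWIST1, SNAI1 and SNAI2 were not. ZEB1 held E-boxes in 2 of its 7 promoters, and the other 4 genes held none.

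Genes listed as mesenchymal targets of these factors were mostly higher in SK-LMS-1. VIM, the intermediate filament of mesenchymal cells, was the most abundant, at 8473 and 4844 CPM. CDH2, the gene of N-cadherin, was 44.6-fold (37.4 to 53.7) higher in SK-LMS-1, at 704 against 15.8 CPM. FN1, fibronectin, had 13556 and 6 counts. TNC, tenascin, had 6217 and 28 counts. COL3A1 and COL5A2, fibrillar collagens, leaned to SK-UT-1, by 35.5-fold (25.7 to 50.7) and 11.5-fold (10.2 to 13.1). Among 20 measured genes, 13 leaned 2-fold or more to SK-LMS-1, 2 to SK-UT-1, and 5 differed by less (median 2.16). How these levels relate to those of the 8 factors was not tested.

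**Figure D4:**
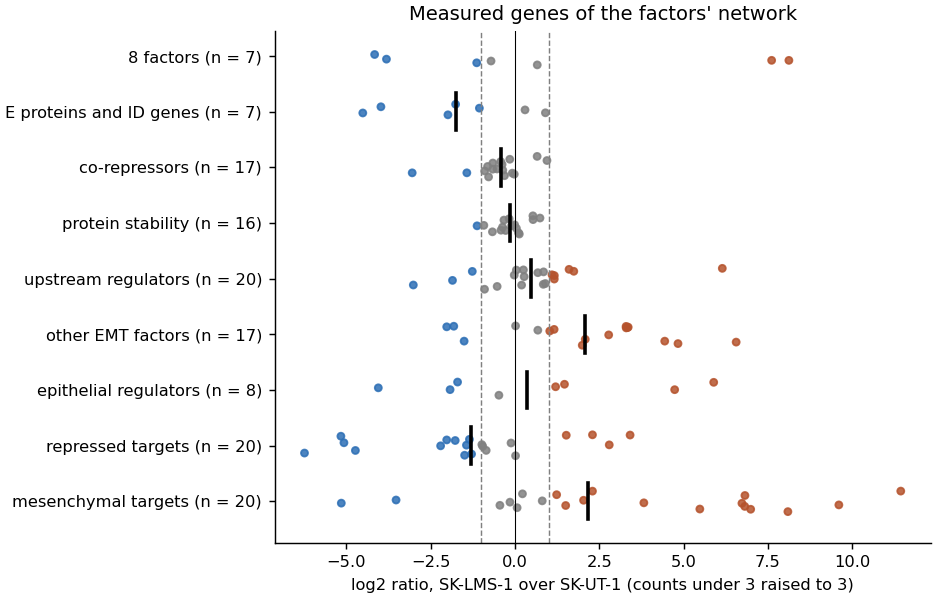
Log2 ratio of SK-LMS-1 over SK-UT-1 (horizontal axis) for each measured gene of the 8 factors and of 8 lists around them, with 1 point per gene, vertical jitter, bars at the medians of the 8 lists and dashed lines at 2-fold. Orange marks 2-fold or more towards SK-LMS-1 and blue the same towards SK-UT-1. The co-repressor and stability lists cluster between the dashed lines, and the mesenchymal targets spread from -5.15 to 11.4.

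The ratios of the factor genes were compared with those of their chromosomal neighbours. TWIST1 lies between HDAC9, 118099 bases away, at 81.2 and 94.8 CPM, and TWISTNB, at 115 and 182 CPM, so neither neighbour reached the 14.0-fold of TWIST1. GTDC1, 51841 bases from ZEB2 and the only measured gene starting within 1 Mb of it, was 2.58-fold (1.83 to 3.69) higher in SK-LMS-1. ACVR2A, on the far side and 3324126 bases away, was 2.89-fold (2.02 to 4.20) higher there. Both leaned in the direction of ZEB2 but far below 195-fold. Beside PRRX1, GORAB stood at 9.46 and 12.9 CPM. Beside PRRX2, ASB6 was 1.36-fold (1.13 to 1.66) higher in SK-UT-1, whereas PTGES, 15664 bases away, had 0 and 42 counts and was higher by at least 11.4-fold in SK-UT-1. PTGES, a prostaglandin E synthase gene, thus had counts in SK-UT-1 only, as did PRRX2. EFCAB1, 182370 bases from SNAI2, had 0 and 23 counts, higher by at least 6.24-fold in SK-UT-1. PCMTD1, on the other side but 2896135 bases away, was 10.5-fold (7.43 to 15.3) higher in SK-LMS-1. ZEB1-AS1, which starts 77 bases from ZEB1 on the opposite strand, had 43 and 24 counts, a ratio of 2.20 (1.31 to 3.79) towards SK-LMS-1 and so opposite to ZEB1. ARHGAP12 on the other side of ZEB1 was 2.67-fold (2.46 to 2.89) higher in SK-UT-1. TWIST2 lies between ASB1, 2.35-fold (1.98 to 2.79) higher in SK-LMS-1, and HDAC4, at 20.0 and 17.1 CPM, and SNAI1 lies between RNF114 and UBE2V1, both within 2-fold. Within 1 Mb of PRRX2, 26 of 33 measured genes lay within 2-fold, and within 1 Mb of PRRX1, 6 of 9.

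**Figure D5:**
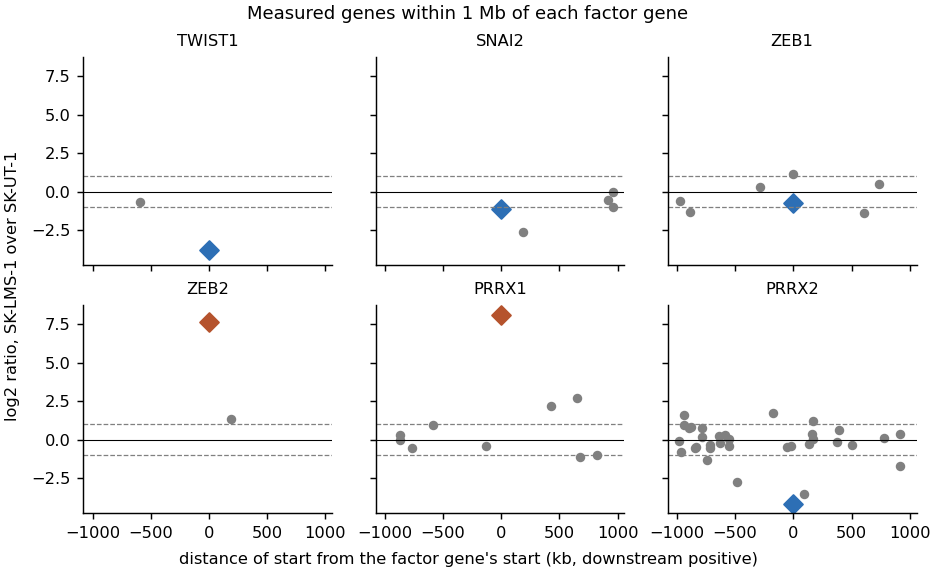
Log2 ratio of SK-LMS-1 over SK-UT-1 (vertical axis) against the distance of each measured gene's start from the factor gene's start (horizontal axis, kb), for genes within 1 Mb of 6 of the factors (TWIST2 and SNAI1 are not drawn). Diamonds are the factor gene (orange higher in SK-LMS-1, blue in SK-UT-1), grey points its neighbours, dashed lines 2-fold. No grey point in the ZEB2 and PRRX1 panels exceeds 2.71, while the diamonds stand at 7.61 and 8.12.

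Among the 212 other genes of all lists, the nearest in level over the 2 libraries were found by Euclidean distance on log2(CPM + 0.5). PRRX1 was nearest to ZEB2 and ZEB2 to PRRX1 (distance 0.51), with the ligand gene WNT5A, at 83.8 and 0.745 CPM, next for both. TWIST1 was nearest to ID2 (0.11) and ID4 (0.85). SNAI2 was nearest to TCF3 (0.31) and STAT3 (0.43), and ZEB1 to KDM1A (0.31) and FBXO11 (0.41). For PRRX2, SPINT1, at 0 counts in SK-LMS-1, lay at a distance of 0.96, and TWIST2 was nearest to PDGFRB (0.48) and KLF4 (0.75). With 2 libraries, such likeness describes a pair of levels and no more.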

How the data were processed

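Total RNA of 2 cell lines under DMSO was sequenced with a stranded SMARTer kit, per the labels' protocols. The authors deposited raw fragment counts per gene, made with featureCounts 2.0.1 over exons of a UCSC hg38 annotation with strand setting 1, per the file headers, which also show that fragments were assigned to every gene they overlap. The sources used here do not name the aligner. A further 2 count columns belong to neither sample and stayed unused.

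Counts were scaled with edgeR 4.0.16 in R 4.3.3 (TMM factors 0.949 and 1.05, SK-LMS-1 first). TPM was computed from counts and the table's exon lengths. Ratios carry exact conditional binomial (Clopper-Pearson) 95% intervals, which cover counting error only and treat amplified fragments as independent, though they need not be separate molecules. Counts under 3 were raised to 3 for the 2-fold rule and for medians, and a fold against 0 counts is given as at least, without the counting error of the higher library. With 1 library per line no p-value is given. The calculation was tested on simulated counts with counting error only. Intervals held the true fold for 94.5% of changed genes, and 316 of 13782 unchanged measured genes came out 2-fold apart. The simulation held no variation between cultures, so it cannot show how single libraries of a line would differ.

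The members and lists were chosen with earlier results of these data known. All 8 members were reported. For each list, up to 3 genes per direction with the largest ratio among those 2-fold apart at 5 CPM or more were named, with the most abundant per length, set partners and targets, and the nearest measured neighbours. Absent markers, HAND1, HAND2, ALX1, TCF15, TAL1, SNAI3, SNAI3-AS1, CNN1, DES and LMOD1 were named after their values were seen. So were TGFB1, TGFB3, TGFBR1, SMAD2, SMAD3 and SMAD4. A few genes that the rule names are not reported here. Of 214 list entries, all were found in the table, 3 of them under older names. Alternatives covered scaling (totals, upper quartile, size factors of DESeq2 1.42.0), filters, a floor of 1 count, thinning, an interval rule and removal of small RNA genes.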

Additional observations from a re-analysis of the deposited data

How the results depend on the processing

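No paired analysis was possible because each line has 1 library. For the same reason no library could be left out. The counts of factors at least 2-fold apart, 2 towards SK-LMS-1 and 3 towards SK-UT-1, were 2 and 3 under every alternative tried except the rule that the whole interval lie beyond 2-fold, where SNAI2 dropped out and the second count was 2. No measured factor changed direction. The ZEB1 log2 ratio of -0.71 became -0.86 with library totals and -0.84 with the upper quartile, scalings that moved the median of all measured genes by -0.15 and -0.13. Over all measured genes, 2618 leaned 2-fold or more to SK-UT-1, 1720 with a filter at 5 CPM and 1447 with the interval rule, both of which admit fewer genes. With the upper quartile the balance was 2855 towards SK-LMS-1 to 3072 towards SK-UT-1. The median of the epithelial regulators, 0.36, was -0.63 with library totals, -0.61 with the upper quartile -0.49 with small RNA genes left out and 2.13 with a filter at 5 CPM (0.36 is the midpoint between KLF4 and GRHL1). Of 327 alternative values of the lists, 294 stayed close, 30 moved and 3 reversed. Without the division by length, TWIST1 held 2.25% and 23.8% of the factor counts. As for depth, 1 CPM equals 6.55 counts in the SK-LMS-1 library and 8.05 in the other, which limits what low genes such as SNAI1 can show.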

Other observations

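Relatives of the factors were sparse in both lines. Of 19 genes, 7 were measured and 7 had 0 counts in both lines. SHOX2, a homeobox gene related to PRRX1, had 150 and 10 counts, 18.4-fold (9.75 to 39.2) higher in SK-LMS-1. ALX1, another paired-type homeobox gene of facial mesenchyme, had 13 and 0 counts. TCF15, a bHLH gene of paraxial mesoderm related to TWIST1, had 0 and 21 counts, higher by at least 5.70-fold in SK-UT-1, and TAL1, a bHLH gene of blood formation, had 0 and 18. Of the measured relatives, 4 leaned 2-fold or more to SK-LMS-1 and 3 to SK-UT-1, but with a filter at 5 CPM only SHOX2 was left. SNAI3, the third Snail gene, had 0 and 2 counts.

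DNM3OS, the transcript that hosts miR-214 and miR-199a and a known TWIST1 target, had 43 and 174 counts, 3.29-fold (2.35 to 4.71) higher in SK-UT-1. SNAI3-AS1 had 6 and 27 counts, a ratio of 3.66 (1.48 to 10.9) towards SK-UT-1. Of 12 non-coding loci, 9 had 0 counts in both lines, the miR-205 host MIR205HG among them. Of the smooth muscle markers, MYLK was 41.6-fold (33.3 to 52.6) higher in SK-LMS-1, TAGLN 11.6-fold (8.44 to 16.2) and ACTG2 at least 16.0-fold. CNN1 and CALD1 also leaned there. In contrast, ACTA2 was 5.13-fold (3.97 to 6.72) higher in SK-UT-1. DES, at 1 and 26 counts, and LMOD1, at 4 and 10, leaned to SK-UT-1 as well. CALD1, caldesmon, was the most abundant of the markers, at 749 and 343 CPM.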
